A study of Saccharomyces cerevisiae with 6 samples.

Results

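The RNA that co-purified with the export receptor Mex67 at 42 °C was set against the RNA that co-purified with the adaptor Npl3 at 42 °C in baker's yeast (Saccharomyces cerevisiae). These are 2 of the 6 arrays of the study, and the comparison takes the deposited log2 value of the Mex67 array minus that of the Npl3 array at each of 5667 S. cerevisiae loci. The Mex67 precipitate came from strain HKY1266 and the Npl3 precipitate from strain HKY157, and mock precipitates without a tag are labelled HKY36/HKY381. All cells grew at 25 °C in YPD, a rich medium, to log phase, were divided and kept for 30 min at 25 °C or 42 °C, and were then crosslinked with UV light. Lysates were incubated with a c-myc antibody on Protein G beads and with GFP-Trap beads. The labels give neither the tag nor the genotype of a strain. The study's title asks how transcripts made under stress leave the nucleus in relation to mRNA quality control.

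Mex67 forms a heterodimer with Mtr2 and carries mRNA through the nuclear pore. It meets mRNA mostly through adaptors, which are loaded while the transcript is made and processed. Npl3 is such an adaptor, an SR-like protein that shuttles between nucleus and cytoplasm and also takes part in splicing and 3' end formation. During heat shock yeast represses ribosomal protein genes, induces chaperone genes through Hsf1 and general stress genes through Msn2 and Msn4, and holds back much of its other mRNA.

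Each group is 1 array, so no difference here has a replicate check and no p-value can be given. A locus was counted as higher or lower when the log2 values differed by at least 1, which is 2-fold, and when it lay above background on at least 1 of both arrays. Background was the 95th percentile of the probe sets for the fission yeast S. pombe, which was not in the samples. Values are relative within an array, since the arrays look scaled to a like distribution. Total RNA of the same cells was not analysed here, so that more binding, more of the mRNA in the cell and a property of the strain cannot be told apart. The no-tag array at 42 °C is given beside the values for the relative levels of RNA held without a tag. As the arrays look scaled alike, it does not measure how much RNA the beads held. Subtracting it from both sides leaves the difference as it is.

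Technical signals of the 42 °C arrays of Mex67 and Npl3 were compared first. Among 4999 S. pombe probe sets, 0 differed 2-fold between them, with a standard deviation of the difference of 0.231. These probe sets lay at background, with medians of 3.99 and 4.01, so this spread does not measure that of expressed loci. The S. cerevisiae medians were 11.18 and 11.13. The median of 42 labelling spike probe sets was 4.84 for Mex67 and 4.96 for Npl3, and that of 17 ribosomal RNA probe sets was 13.71 and 13.91. The median of 27 hybridization spike probe sets was 10.35 and 10.78, further apart than the S. pombe spread. The 3' probe set of ACT1, the actin gene, exceeded its 5' probe set by 0.80 and by 1.10, and that of EAF5 by 1.70 and by 1.12. At 25 °C the labelling spikes lay further apart, at 5.88 for Mex67 and 4.87 for Npl3, a wider gap than that of the 42 °C pair. In the 42 °C mock the labelling spike median was 6.27 and the ribosomal RNA median 14.33, both above those of the 42 °C precipitates. What part this has in the readings against the mock was not tested.

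At 42 °C, 1273 of 5649 loci were at least 2-fold higher with Mex67 (22.5%) and 1140 at least 2-fold lower (20.2%). The higher side was mild and the lower side reached further. A 4-fold difference was seen at 219 loci with Mex67 above Npl3 and at 404 loci with Npl3 above Mex67, and an 8-fold difference at 33 and 86. The median over all loci was 0.14, with quartiles of -0.75 and 0.92. Across the 5667 loci the arrays correlated with Pearson's r of 0.729, a description over genes that are not independent of each other. At the edge of 2-fold, APE1 (an aminopeptidase) and PTM1 were counted as higher with Mex67, and PRS5 and HSP82 just missed the count. MRPL20 and RXT2 were counted as lower, and TRS33 and TIF35 just missed.

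**Figure D1:**
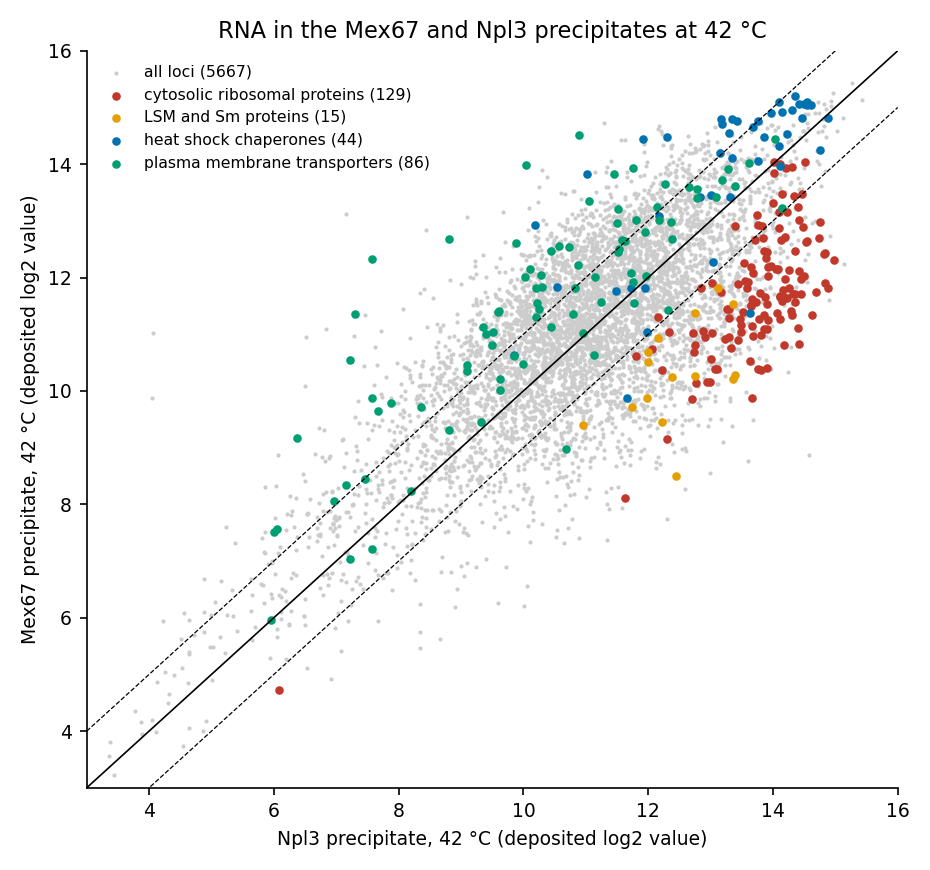
Deposited log2 values of 5667 loci in the Npl3 precipitate (x axis) and the Mex67 precipitate (y axis) at 42 °C, 1 array each, with the solid line at equal values and the dashed lines at 2-fold. Cytosolic ribosomal protein mRNAs (red) and LSM and Sm mRNAs (orange) lie below the line, and most plasma membrane transporter mRNAs (green) and chaperone mRNAs (blue) lie above it.

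The no-tag array at 42 °C lay between the precipitates at most of the counted loci. Of the 1273 loci that were higher with Mex67, it lay between both at 955, above both at 270 and below both at 48. Their median level was 11.87 with Mex67, 11.44 without a tag and 10.28 with Npl3, so the larger step was from the mock down to Npl3. Of the 1140 loci that were lower with Mex67, the mock lay between both at 769, below both at 324 and above both at 47. Their median level was 10.44 with Mex67, 10.68 without a tag and 12.35 with Npl3. In both directions the Mex67 array was thus the nearer to the mock, by 0.40 and -0.28 in the median against -1.14 and 1.45 for Npl3.

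Some of the widest differences were at genes that strains often lack or carry as markers, and these were present at 25 °C too. URA3, of pyrimidine synthesis and a common selection marker, read 8.88 with Mex67 and 14.58 with Npl3 at 42 °C, against 9.84 and 14.55 at 25 °C and 11.25 in the 42 °C mock. LEU2, of leucine synthesis, read 6.27 with Mex67, 9.59 with Npl3 and 11.60 in the mock. MET17, of sulfide incorporation, read 5.62 with Mex67, 8.66 with Npl3 and 13.26 in the mock. For LEU2 and MET17 both precipitates therefore lay under the mock, and the difference at 25 °C was -3.33 and -4.98.

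In the other direction PRM8 and MST27, a pair of related membrane protein genes of the DUP240 family, were at background on both Npl3 arrays. PRM8 read 11.02 with Mex67 and 4.07 with Npl3 at 42 °C, and 10.22 and 3.70 at 25 °C. MST27 read 9.87 and 4.04 at 42 °C, and 8.82 and 3.84 at 25 °C. With the Npl3 values set to the background limit of that array, 5.06, PRM8 was at least 62.5-fold and MST27 at least 28.1-fold higher with Mex67 at 42 °C.

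Mating genes were read for the cell type of the strains. STE2, the receptor for alpha factor, made by a cells, read 11.90 with Mex67, 13.06 with Npl3 and 9.12 in the mock. STE3, the receptor for a factor, made by alpha cells, read 7.90, 8.54 and 12.59. MF(ALPHA)1, the alpha factor precursor, read 6.67, 7.08 and 13.35. The alpha-specific SAG1 lay closer together, at 10.93, 10.18 and 11.71. By STE2, STE3 and MF(ALPHA)1 both precipitates thus carry a-cell mRNAs and the mock mainly alpha-cell mRNAs. The a-specific mRNAs differed within the pair to unlike degrees.

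Among the a-specific genes, AGA2, an agglutinin subunit, read 9.38 with Mex67 and 13.34 with Npl3. MFA2, a gene for a factor, read 11.60 and 14.89. BAR1 and STE6, also a-specific, differed by less than 2-fold, at -0.84 and -0.50. AGA2 and MFA2 are short genes, of 264 and 117 bp, and BAR1 and STE6 longer, of 1764 and 3873 bp. With the trend over coding length (described below) taken away, the values were -2.84 for AGA2, -2.62 for MFA2, -1.37 for BAR1 and -1.43 for STE6. At 25 °C the difference was -0.02 for STE2 and 0.87 for STE6. Of 15 mating type genes 6 were lower with Mex67 and 2 higher, and the median difference was -0.84. Of 27 pheromone-induced genes 2 were higher and 6 lower (median -0.53). Over all loci 22.5% were higher and 20.2% lower, so the lower share of the pheromone-induced genes was near that of all loci. At 25 °C the pheromone-induced genes were further apart, with 14 of 27 lower with Mex67 and a median of -1.09. Of all loci 15.2% were lower there.

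The bait mRNAs themselves were not among the counted loci. MEX67 read 11.83 in the Mex67 precipitate and 11.52 in the Npl3 precipitate at 42 °C, and 11.30 and 11.61 at 25 °C. NPL3 read 14.59 and 15.03 at 42 °C, and 14.14 and 14.98 at 25 °C. NPL3 was thus higher with Npl3 at both temperatures by less than 2-fold.

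Sets of genes with a shared role fell to different sides. For 34 lists the members at least 2-fold higher and lower and the median are read below beside the shares of all loci, 22.5% and 20.2%, and the median of 0.14. Near-identical gene copies, common among ribosomal proteins, may share signal on the array.

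**Figure D2:**
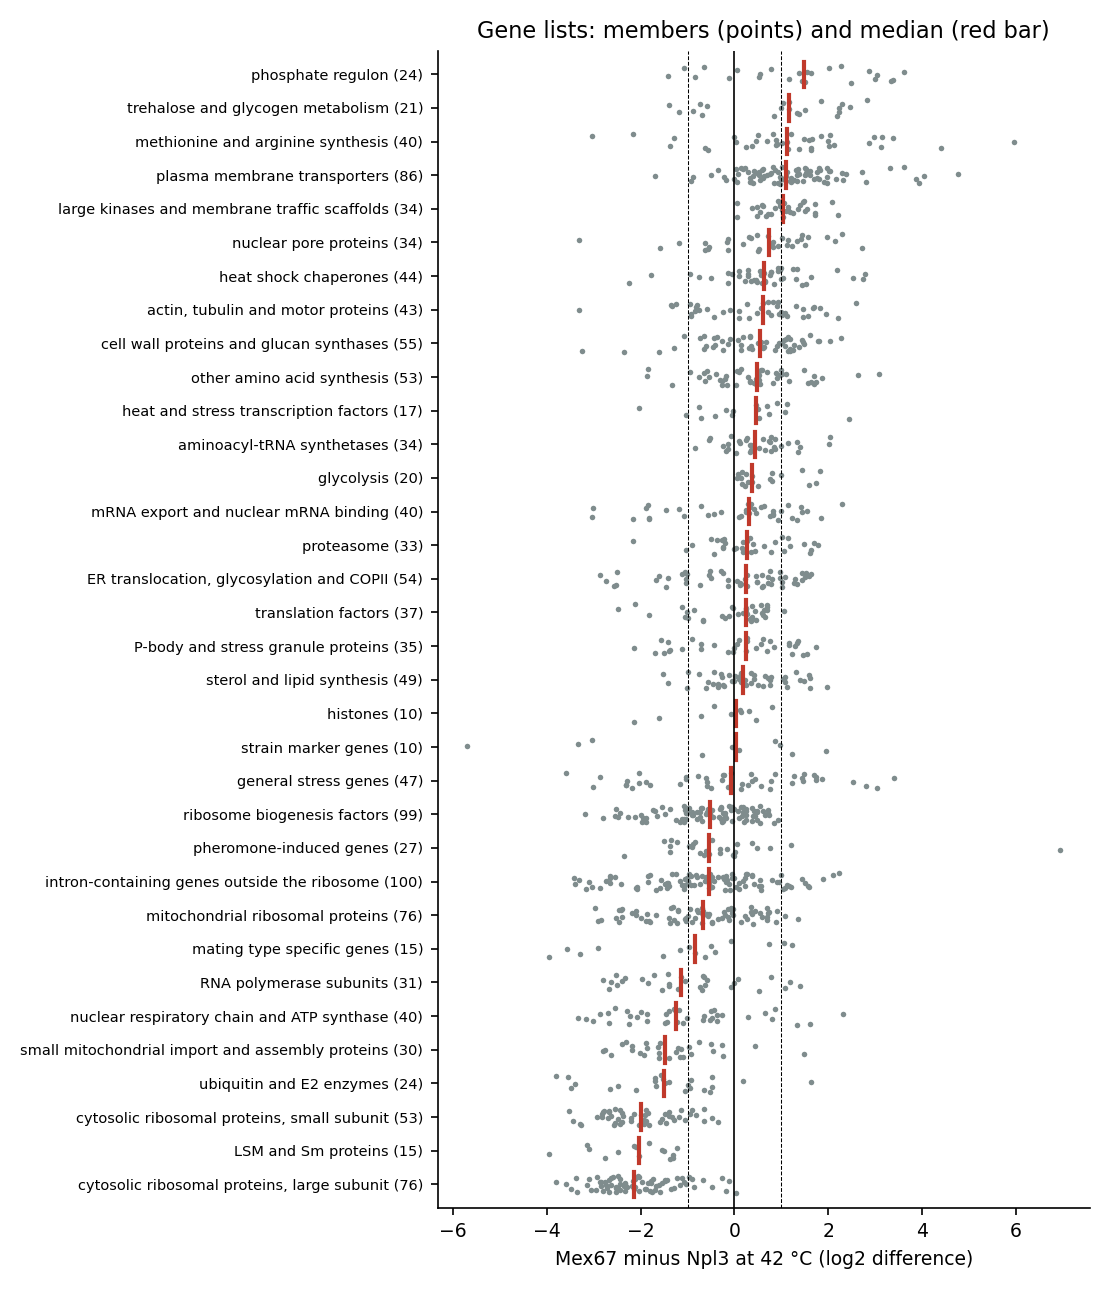
Log2 difference, Mex67 minus Npl3 at 42 °C, of the members of 34 gene lists (grey points, number of members in brackets), ordered by the median (red bar), with dashed lines at 2-fold. Medians run from -2.13 for large subunit ribosomal proteins to 1.48 for the phosphate regulon.

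The genes of methionine, cysteine and arginine metabolism, regulators included, stood mostly on the Mex67 side at 42 °C. Of 40 measured members 22 were at least 2-fold higher with Mex67 and 4 lower, with a median of 1.13. At 25 °C 5 were higher and 12 lower, with a median of 0.10, beside 12.1% and 15.2% of all loci. The lowest members at 42 °C were MET17, read above among the strain markers, at -3.04 and MET31 at -2.17. The median level of the list at 42 °C was 12.03 with Mex67, 11.14 with Npl3 and 12.12 in the mock. MET2, homoserine acetyltransferase of the methionine branch, had a difference of 5.96, the widest, outside the strain, mating and pheromone lists, of the genes named by rule. It read 13.12 with Mex67 and 7.16 with Npl3 at 42 °C, 8.11 and 6.81 at 25 °C, and 11.54 in the 42 °C mock. Only the Mex67 array and the mock were high in heat, and the Npl3 array was near its 25 °C level.

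STR3, cystathionine beta-lyase, gave the same picture, with 12.85 for Mex67, 8.44 for Npl3 and 13.00 for the mock at 42 °C. At 25 °C it read 6.82, 8.23 and 7.07. MET6, methionine synthase, read 14.42 with Mex67 and 11.56 with Npl3 at 42 °C, but 11.31 and 12.76 at 25 °C. MET28, a subunit of the Cbf1 complex that activates these genes, read 11.45 and 8.07 at 42 °C, and 8.55 and 8.45 at 25 °C. For each of these 4 genes the Mex67 value was higher at 42 °C than at 25 °C, while the Npl3 value differed by less than 1 or was lower.

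Split after the values were seen, the 27 methionine, cysteine and sulfate genes had a median of 1.38 and the 13 arginine genes one of 0.90. CAR2, ornithine transaminase of arginine breakdown, read 11.96 with Mex67 and 8.83 with Npl3. ARG3, ornithine carbamoyltransferase, went the other way, with 11.48 and 12.84 at 42 °C. At 25 °C ARG3 was 7.64 with Mex67 and 12.15 with Npl3, so the gap was wider before heat. Of 53 genes for other amino acids 12 were higher and 3 lower, a median of 0.48, led by ARO9, an aromatic aminotransferase, at 3.09. Their higher share was near the 22.5% of all loci, and their lower share was below the 20.2% of all loci. Without the length trend the median of this list was 0.13.

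Plasma membrane transporters lay mostly on the Mex67 side. Of 86 members 46 were at least 2-fold higher with Mex67 and 1 lower, and 78 lay above 0. The median was 1.10, with median levels of 11.82 for Mex67, 10.44 for Npl3 and 11.78 for the mock. With the trend over coding length (described below) taken away, the median was 0.54. The 1 lower member was ATO2, an ammonium and acetate transporter homologue, at -1.69.

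QDR2, a drug and potassium exporter, read 12.34 with Mex67 and 7.57 with Npl3 at 42 °C, and 12.35 and 7.90 at 25 °C. The difference was nearly the same at both temperatures, and the mock, at 13.06, was nearer to Mex67. MUP1, the high-affinity methionine permease, read 13.98 and 10.04 at 42 °C, against 11.32 and 10.13 at 25 °C. MMP1, the S-methylmethionine permease, read 11.35 and 7.30 at 42 °C. Its neighbour in the genome, MHT1, a methyltransferase that uses S-methylmethionine, read 10.96 and 7.28. OPT1, a transporter of oligopeptides and glutathione, read 12.68 and 8.81, and 11.85 and 8.88 at 25 °C. PNS1, a choline transporter-like protein, read 11.34 and 7.46.

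The phosphate regulon had the highest median of the lists, 1.48 (1.01 without the length trend), with 15 of 24 members higher and 2 lower. PHO84, the high-affinity phosphate transporter, read 14.52 with Mex67, 10.89 with Npl3 and 13.44 in the mock at 42 °C. At 25 °C it read 13.80, 10.21 and 11.75, a difference of 3.59 beside 3.63 in heat. PHO5, the secreted acid phosphatase, read 11.73 and 8.35 at 42 °C, and 10.80 and 7.76 at 25 °C. SPL2, a small regulator of low-affinity phosphate uptake, read 11.06 and 7.72. All 3 were far apart before heat as well, SPL2 by 2.55. PHM6, of unknown function, was lower with Mex67 in heat, 8.89 against 9.97, and higher at 25 °C, 10.57 against 8.92.

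Trehalose and glycogen genes differed mainly in heat. Of 21 members 13 were at least 2-fold higher with Mex67 at 42 °C and 2 lower, with a median of 1.17, or 0.65 without the length trend. At 25 °C 0 were higher, 5 lower, and the median was 0.02. GSY1, a glycogen synthase, read 12.07 with Mex67 and 9.25 with Npl3 at 42 °C, and 10.05 and 10.14 at 25 °C. TSL1, a subunit of the trehalose synthase complex, read 14.53 and 12.22, and at 25 °C 9.99 and 10.41. TPS2, the phosphatase of that complex, read 13.59 and 11.36, and at 25 °C 11.50 and 11.42. On the mock array these mRNAs stood between both precipitates in heat, at 11.61, 13.77 and 12.87. The lower members were PIG1 and PIG2, targeting subunits of a phosphatase that acts on glycogen synthase, at -1.40 and -1.19.

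Heat shock chaperone mRNAs were higher with Mex67 at 36 of 44 members, but at most of these by less than 2-fold. At 42 °C 11 were at least 2-fold higher and 2 lower, a share of higher members near that of all loci, and the median was 0.64. Their median level was 14.46 with Mex67, 13.38 with Npl3 and 13.99 in the mock. At 25 °C it was 12.57, 12.28 and 12.72. Many of them stood near the highest value of any array, 15.43, where differences may have less room. Whether this narrowed their differences was not tested.

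The chaperones with the widest differences were on the Mex67 side. HSP78, the mitochondrial disaggregase, read 14.44 with Mex67 and 11.91 with Npl3 in heat, against 10.45 and 10.18 at 25 °C. HSP30, a plasma membrane stress protein, read 14.48 and 12.29 in heat, against 9.39 and 9.44. APJ1, a J-protein, read 13.82 and 11.03, and CUR1, a sorting factor for misfolded proteins, 12.93 and 10.19. These last genes were already 1.53 and 1.49 apart at 25 °C, while HSP78 and HSP30 were 0.27 and -0.05 apart.

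The disaggregase HSP104 read 14.70 with Mex67, 13.18 with Npl3 and 14.30 in the mock at 42 °C. The inducible Hsp90 gene HSP82 read 15.09, 14.09 and 14.74, a difference of 1.00 beside 0.99 at 25 °C. SSA4, a heat-inducible Hsp70, read 15.20, 14.36 and 14.85. HSP26 and HSP42, small heat shock proteins that bind unfolded proteins, differed by 0.43 and 0.48. HSP12, a small membrane-associated stress protein, read 14.82 and 14.88. Both values were near the top of the scale.

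On the Npl3 side were MGE1, the nucleotide exchange factor of mitochondrial Hsp70, with 11.37 against 13.63, and SNL1, an Hsp70 co-chaperone of the endoplasmic reticulum, at -1.78. With the trend over coding length taken away, the median of the chaperone list was 0.43.

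**Figure D3:**
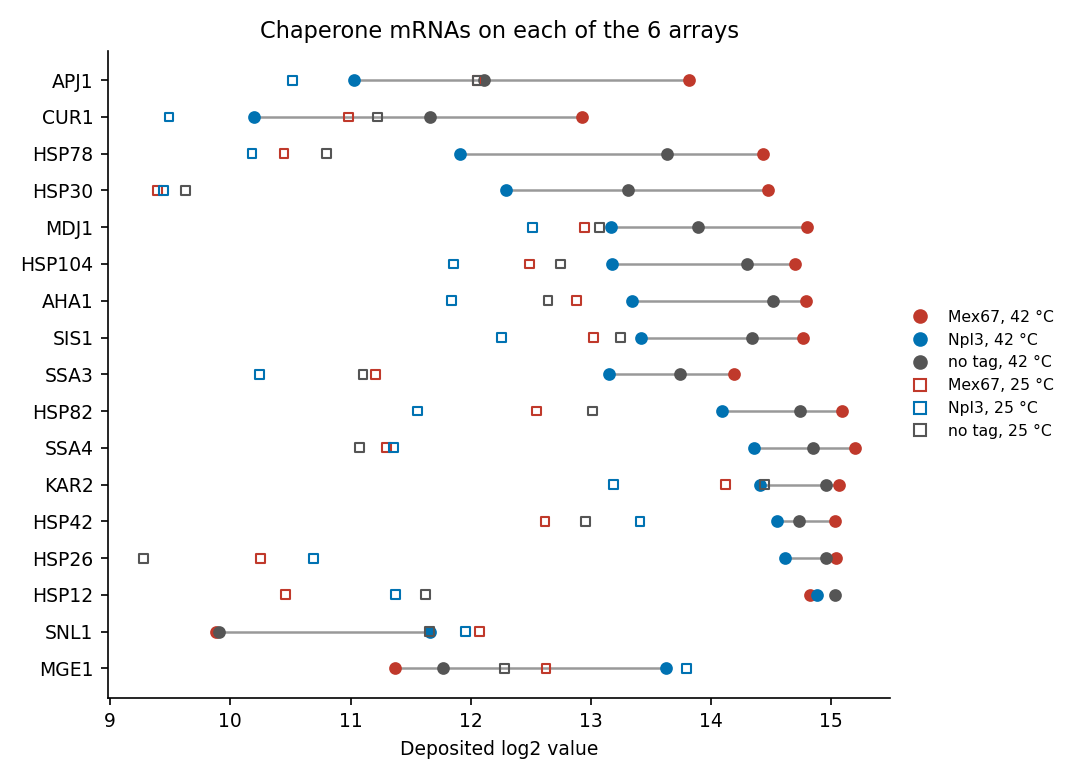
Deposited log2 values of 17 chaperone and co-chaperone mRNAs on the 6 arrays, 1 point for each array, with filled circles for 42 °C, open squares for 25 °C, red for Mex67, blue for Npl3 and grey for no tag; the grey line joins Mex67 and Npl3 at 42 °C. The line is long for HSP78 (14.44 and 11.91) and short for HSP12 (14.82 and 14.88), and it runs the other way for SNL1 and MGE1.

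General stress genes did not move as a set. Of 47 members 13 were higher and 14 lower, with a median of -0.08. GPD1, of glycerol synthesis, stood highest at 3.41. PHM7 followed at 3.04 and RTC3 at 2.81, with 13.47 for Mex67 and 10.66 for Npl3. DDR2, a small stress protein, read 12.72 with Mex67 and 14.91 with Npl3 at 42 °C, and 9.50 and 13.77 at 25 °C. CTT1, the cytosolic catalase, read 11.13 and 9.43 at 42 °C, and 8.95 and 9.0 at 25 °C.

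The mRNAs of the stress regulators differed little. Of 17 heat and stress transcription factors 3 were higher, namely ADR1 at 2.44, YAP1 at 1.13 and RPN4 at 1.08, and 2 lower, namely USV1 at -2.03 and XBP1 at -1.02. HSF1, the heat shock factor, read 13.32 with Mex67 and 12.58 with Npl3 at 42 °C, and 11.32 and 12.58 at 25 °C. Its Npl3 value was the same at both temperatures and its Mex67 value was not. MSN2 differed by 0.91 and MSN4 by -0.18. The median of the list was 0.47, and -0.11 without the length trend.

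Proteasome subunit mRNAs were at least 2-fold higher with Mex67 at 9 of 33 members, a share near the 22.5% of all loci. Lower were 2, and 21 of 33 lay above 0. The median was 0.28, beside 0.14 over all loci. RPT6, an ATPase of the regulatory particle, read 14.14 with Mex67 and 12.36 with Npl3. UBI4, the polyubiquitin gene induced by stress, read 14.03 and 12.40, and 11.95 and 11.44 at 25 °C. SEM1, the smallest subunit, was at -2.17. Without the length trend the proteasome median was 0.62.

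Ribosomal protein mRNAs stood on the Npl3 side almost without exception. Of 76 large subunit members 67 were at least 2-fold lower with Mex67 and 0 higher, with a median of -2.13. Of 53 small subunit members 46 were lower and 0 higher, with a median of -2.0. At 25 °C the medians were 0.12 and -0.09, and 3 and 1 members were lower. The large subunit mRNAs had a median level of 11.67 with Mex67 at 42 °C against 14.06 at 25 °C. With Npl3 it was 13.87 at 42 °C against 14.12 at 25 °C, and in the mock 13.40 against 14.0. The Npl3 array at 42 °C was near the 25 °C arrays, and the Mex67 array lay below all others, the mock included.

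Single members show the same order of arrays. RPL40B, which encodes a ribosomal protein fused to ubiquitin, read 9.87 with Mex67, 13.67 with Npl3 and 12.65 in the mock at 42 °C, against 13.40, 14.12 and 13.40 at 25 °C. RPS10B read 8.10, 11.63 and 10.51 at 42 °C, against 11.15, 12.08 and 11.38. RPL37A read 10.83, 14.42 and 13.05. The members with small differences were RPL10, at 14.04 with Mex67 and 14.02 with Npl3, RPL4A at -0.12 and RPL3 at -0.18. RPL3 read 13.84 and 14.02 in heat, and 14.84 and 14.17 at 25 °C. With the length trend taken away the medians were -1.76 and -1.52. The length used includes any intron, so for genes with an intron the trend was taken at more than the mRNA's coding length. RPL40B, entered at 755 bp, went from -3.80 to -3.26, and RPL29, at 180 bp, from -3.49 to -2.58. How far the list medians depend on this was not tested.

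Ribosome biogenesis factors, which assemble ribosomes in the nucleolus, followed in the same direction with smaller steps. Of 99 members 33 were lower with Mex67 and 0 higher, and the median was -0.52, or -0.88 without the length trend. At 25 °C 7 were lower and 7 higher. RRP36, of early small subunit assembly, was the lowest member at -3.19. EFG1, of ribosomal RNA processing but not in this list, read 7.75 with Mex67 and 12.31 with Npl3. Outside the strain and mating lists, EFG1 had the lowest difference of the genes named by rule, -4.56. FYV7, which takes part in ribosomal RNA processing and is not in the list either, read 9.10 and 13.19, and at 25 °C 10.94 and 13.10.

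Mitochondrial ribosomal proteins gave 30 of 76 members lower and 2 higher, a median of -0.68 that became -0.12 without the length trend. Translation factors had 6 of 37 lower and 1 higher, with 22 above 0 and a median of 0.25. Their lower share was below the 20.2% of all loci, and TIF11, the initiation factor eIF1A, was lowest at -2.48. Aminoacyl-tRNA synthetases, long mRNAs by comparison, had 7 of 34 higher, a share near the 22.5% of all loci, and 0 lower.

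All 15 mRNAs of the LSM and Sm proteins, small subunits of the rings that bind U6 and other spliceosomal RNAs and decaying mRNA, were at least 2-fold lower with Mex67. The median difference was -2.03, with median levels of 10.26 for Mex67, 12.38 for Npl3 and 10.53 for the mock. At 25 °C 8 of the 15 were lower. LSM8, the subunit of the nuclear ring, read 8.50 with Mex67, 12.44 with Npl3 and 7.43 in the mock, and 8.75, 12.65 and 8.13 at 25 °C. LSM2 read 10.29 and 13.39 at 42 °C, and 12.26 and 13.51 at 25 °C. These are short genes, and without the length trend the median was -0.95.

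The respiratory chain and ATP synthase split by size. Of the 40 nuclear genes 24 were lower and 3 higher, with a median of -1.26. All 24 were among the 34 genes under 1000 bp, and all 3 among the 6 longer ones. COX7, a small subunit of cytochrome oxidase, read 10.40 with Mex67 and 13.74 with Npl3 at 42 °C, and 10.58 and 13.75 at 25 °C. QCR10 read 9.92 and 13.08. SDH1, the flavoprotein of succinate dehydrogenase and a long gene, read 12.75 and 10.42. The length split was chosen after the values were seen. Without the length trend the median of the list was -0.20.

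Other groups of short genes lay on the same side. Of 30 small proteins of mitochondrial import and assembly 21 were lower and 1, MIX17, was higher at 1.49, with a median of -1.49. TIM9, a chaperone of the intermembrane space, read 9.34 with Mex67 and 12.14 with Npl3. Of 24 ubiquitin, ubiquitin-like and conjugating enzyme genes 15 were lower and 1, UBI4, higher, with a median of -1.5. HUB1, a ubiquitin-like splicing modifier, read 8.98 and 12.54. Without the length trend these medians were -0.52 and -0.50.

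RNA polymerase subunits also lay mostly on the Npl3 side. Of 31 genes 17 were lower with Mex67 and 3 higher, and the median was -1.13, or -0.68 without the length trend. RPA12, a small subunit of polymerase I, was lowest at -2.80, and RPC10, a subunit common to the polymerases, was at -2.64. RPO21, the largest subunit of polymerase II, read 14.35 with Mex67 and 12.95 with Npl3. RPO31, the largest of polymerase III, was at 1.18.

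The mRNAs of the export machinery went both ways. Of 40 export and nuclear mRNA-binding genes 8 were higher and 10 lower, with a median of 0.32 that turned to -0.11 without the length trend. NUP42, a nucleoporin on the cytoplasmic side of the pore, read 11.22 with Mex67 and 8.93 with Npl3 at 42 °C, and 11.34 and 8.91 at 25 °C. NAB2, a nuclear poly(A) binding protein, read 14.20 and 12.65, and 12.99 and 12.46 at 25 °C. MTR2, the partner of Mex67, read 11.55 and 13.38, and 11.47 and 13.21 at 25 °C.

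SUS1, a small subunit shared by TREX-2 and SAGA, read 7.75 with Mex67 and 10.78 with Npl3. GFD1, found with the export factor Dbp5 at the pore, read 10.94 and 13.95. YRA1, another adaptor of Mex67, differed by 0.24 and HRB1, an SR-like protein, by 0.10. GBP2, the paralogue of HRB1, read 13.79 and 12.56, a difference of 1.23 beside 0.98 at 25 °C. Of these genes only NAB2 moved by more than 1 between temperatures.

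Nuclear pore genes had 13 of 34 higher and 3 lower, with a median of 0.74, and 0.12 without the length trend. NUP100, which has the FG repeats that Mex67 binds, was highest at 2.73. DYN2, a dynein light chain that is also a pore component, read 8.84 with Mex67 and 12.16 with Npl3. MLP1, a long protein of the nuclear basket that holds back faulty mRNA, read 11.31 and 12.50, and 11.36 and 12.72 at 25 °C, against the direction of other long genes.

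Other lists showed smaller or mixed differences. P-body and stress granule genes had 9 of 35 higher and 8 lower, with XRN1, the 5' exonuclease, at 1.54 and UPF3, of nonsense-mediated decay, at -2.14, and their median of 0.24 was -0.28 without the length trend. Genes of endoplasmic reticulum translocation, glycosylation and COPII coats had 12 of 54 higher and 14 lower. Sterol and lipid genes had 11 of 49 higher and 3 lower. Glycolysis genes were all above 0, with 4 of 20 at least 2-fold higher and a median of 0.37. Cell wall genes had 20 of 55 higher and 5 lower, with TIR4, a mannoprotein, at 2.27 and TOS6 at -3.25. Histone genes had 0 of 10 higher and 2 lower, CSE4, the centromeric histone H3, and HHO1, the linker histone, with a median of 0.03. Without the length trend the histone median was 1.2. Of 99 intron-containing genes outside the ribosome that were above background, 12 were higher and 36 lower. Their median was -0.55, and -0.28 without the length trend, for which the lengths included the introns.

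Coding length went with the difference across all loci. The rank correlation between length and the log2 difference was 0.504 over 5646 loci, a description across genes of 2 arrays. The loci were divided into 10 bins of like size by length. In the shortest bin, from 51 to 450 bp, the median difference was -1.19, with 49 loci higher and 311 lower. In the longest, from 2790 to 14733 bp, it was 0.95, with 263 higher and 9 lower. The 1273 higher loci had a median length of 1710 bp and the 1140 lower ones 648 bp. At 25 °C the correlation was 0.395, and the medians of the shortest and longest bins were -0.81 and 0.62.

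The level on a single array also went with length. On the Mex67 array at 42 °C the rank correlation of level and length was 0.246, and on the Npl3 array -0.177. It was 0.169 in the 42 °C mock, 0.039 for Mex67 at 25 °C and -0.193 for Npl3 at 25 °C. The sign was thus negative on both Npl3 arrays and positive on the other 4, with 0.079 in the 25 °C mock. A labelling kit for 3' ends and a manual for whole transcripts are both named in the labels, and which was used is not clear. Whether RNA length in the precipitate, labelling or binding goes with this was not tested. Probe sets along single genes could be compared for 8 genes. For RIP1, the Rieske protein, the difference was -2.58 at the 3' end and -2.55 at the 5' end, and for ACT1 0.57 and 0.88. For EAF5, of the NuA4 complex, it was -0.05 and -0.63, the widest gap of the 8.

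**Figure D4:**
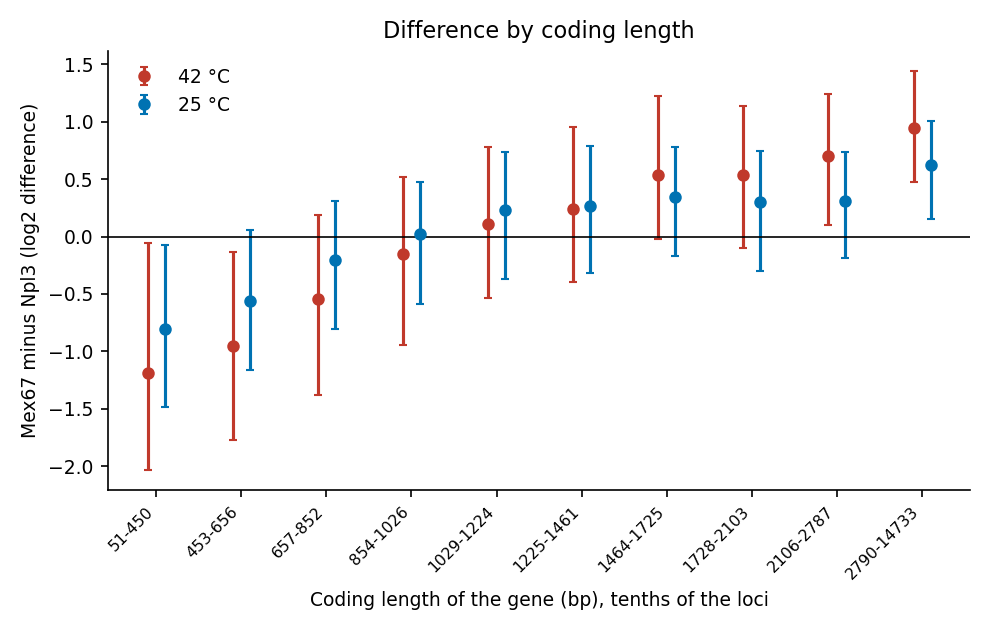
Median log2 difference, Mex67 minus Npl3, in 10 bins of the loci by coding length, at 42 °C (red) and 25 °C (blue), with bars from the lower to the upper quartile of the loci. The 42 °C medians run from -1.19 in the shortest bin to 0.95 in the longest.

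Large kinases and membrane traffic scaffolds, among the longest genes, lay on the Mex67 side at all 34 members, 19 of them by at least 2-fold. Their median of 1.05 became 0.01 without the length trend. VPS13, a lipid transfer protein, was highest at 2.21, and TRA1, a subunit of SAGA and NuA4, read 11.82 with Mex67 and 10.63 with Npl3. Actin, tubulin and motor genes had 13 of 43 higher and 4 lower, led by MYO5, a type I myosin, at 2.59.

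Some genes went against their length, and the following were chosen after their values were seen. In the shortest bin ATG41, of autophagy, read 13.60 with Mex67 and 10.25 with Npl3 at 42 °C, and 9.69 and 9.83 at 25 °C. RTC3 and SPL2, named above, are in the same bin. In the longest bin NMD2, of nonsense-mediated decay, read 10.93 and 12.35, and KAP123, an importin for ribosomal proteins, 11.31 and 12.48. KAP123 was the other way round at 25 °C, with 13.20 for Mex67 and 12.63 for Npl3.

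Other genes among the 15 highest and 15 lowest are given here. On the Mex67 side ASI3, an inner nuclear membrane ubiquitin ligase subunit, read 13.89 and 10.29 at 42 °C, and 10.93 and 10.49 at 25 °C. VPS8, of vacuolar protein sorting, read 13.15 and 9.67. FLO1, a flocculin, read 10.08 and 6.50, and 8.63 and 5.47 at 25 °C. BSC5 read 11.10 and 6.84, and MSC3 14.72 and 11.29.

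On the Npl3 side SPO12, of mitotic exit, read 9.48 with Mex67 and 13.68 with Npl3 at 42 °C, and 10.98 and 14.13 at 25 °C. EGO4 read 10.34 and 14.24, and 9.33 and 13.54 at 25 °C. SDH6, an assembly factor of succinate dehydrogenase, read 9.50 and 13.17. FMP16, a mitochondrial protein of the general stress list, read 9.98 and 13.57, and HTL1, of the RSC complex, 6.21 and 10.00. GON7, of the KEOPS complex, read 10.39 and 13.96. JLP2 read 7.37 and 11.34, and TMA7, found with ribosomes, 8.93 and 12.61. All of these had Npl3 above Mex67 by at least 2-fold at 25 °C too, JLP2 by 1.88 and TMA7 by 1.15.

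The same strains at 25 °C give a comparison with no array in common, although that pair also differs in its labelling spikes, whose part in these results was not tested. There 684 of 5641 loci were higher with Mex67 (12.1%) and 858 lower (15.2%). Of the 1273 loci higher in heat 467 were also higher at 25 °C, which is 36.7% of the heat list and 68.3% of the 25 °C list. Of the 1140 lower loci 586 were also lower at 25 °C, 51.4% of the heat list and 68.3% of the 25 °C list. A further 784 higher and 551 lower loci stayed under 2-fold at 25 °C, while 22 and 3 went at least 2-fold the opposite way.

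The difference at 42 °C less the difference at 25 °C takes away what is the same at both temperatures. It was at least 1 at 708 of 5651 loci (12.5%) and at most -1 at 615 (10.9%). Ribosomal proteins filled the lower side, with 71 of 76 large subunit and 51 of 53 small subunit members and medians of -2.14 and -2.0. Ribosome biogenesis factors had 28 of 99 on that side and 0 on the other. AAH1, adenine deaminase, stood among the 8 lowest at -2.97, from a difference of 0.34 at 25 °C and one of -2.63 at 42 °C. The other 7 of the 8 were ribosomal protein genes, from RPL40B at -3.08 to RPL36A at -2.89.

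Methionine and arginine genes had 21 of 40 members on the higher side and 0 on the lower, with a median of 1.10. Trehalose and glycogen genes had 14 of 21 and 0, general stress genes 19 of 47 and 3, and stress transcription factors 9 of 17 and 0. The LSM and Sm genes, in contrast, had 0 higher and 7 of 15 lower, and the phosphate regulon a median of 0.40. STR3 was highest at 5.82, before MET2 at 4.67 and MET6 at 4.32. FDH1, formate dehydrogenase, followed at 4.28, with 9.42 for Mex67 and 8.90 for Npl3 at 42 °C, and 6.36 and 10.11 at 25 °C. For IME4, an mRNA methyltransferase of meiosis, the values were 7.59 and 6.89 at 42 °C, and 6.87 and 9.87 at 25 °C. FDH1 and IME4 stand here through their 25 °C gap, since at 42 °C they differed by 0.52 and 0.69. General stress genes had 1 of 47 higher and 17 lower at 25 °C, with a median of -0.68, beside -0.08 at 42 °C. Stress transcription factors had 0 of 17 higher and 6 lower at 25 °C, with a median of -0.65, beside 0.47 at 42 °C. Both lists thus also stand here in part through their 25 °C values. Of all loci 12.1% were higher and 15.2% lower at 25 °C.

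**Figure D5:**
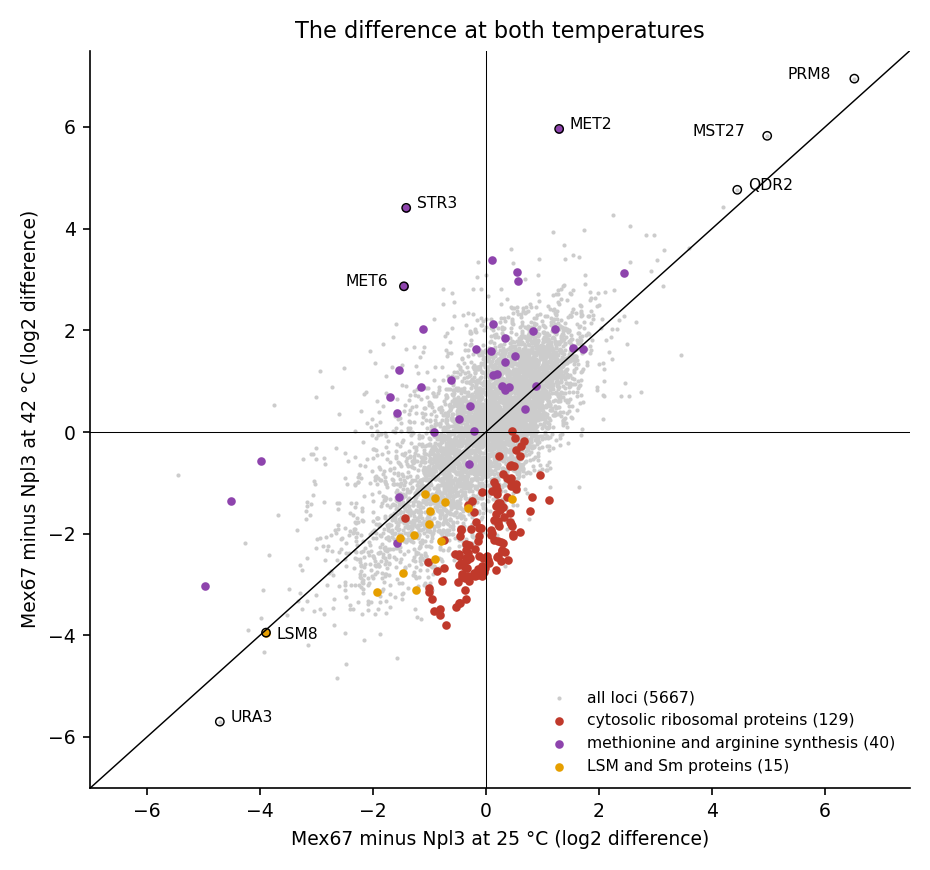
Log2 difference, Mex67 minus Npl3, at 25 °C (x axis) and 42 °C (y axis) for 5667 loci, with the diagonal at equal differences and circled genes named. Ribosomal proteins (red) lie near 0 at 25 °C and near -2 at 42 °C (medians -2.13 and -2.0), whereas PRM8, MST27, QDR2, LSM8 and URA3 lie near the diagonal.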

How the data were processed

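RNA from 6 precipitates was measured on 1 array each, and the values the authors deposited are on a log2 scale, 1 for each probe set. Per the submitters' processing notes affy was used. Its version, how arrays were normalized and how probes were summarised were not given in the sources used here. A column was given to a sample by the strain number in its name and by S (taken as stressed, 42 °C) or US (unstressed, 25 °C), letters that no label explains. Of 10928 probe sets 5716 are for S. cerevisiae, 4999 for S. pombe and 213 are controls or reporters. Probe sets of a locus were averaged (47 loci have several, of which 10 had 42 °C differences at least 1 apart). At 83 loci no probe set is specific to 1 transcript. Of the 5667 loci 5646 were named, and given a length, through RefSeq R64 by locus tag, and 21 keep the file's name. As 97.0% of the lengths are multiples of 3, they are called coding length. Where a gene has an intron, the length includes it.

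Differences of the deposited log2 values were computed with Python 3.11.15, pandas 2.3.3 and numpy 2.4.6, and the length trend was a lowess curve with a span of 0.3 (statsmodels 0.14.6) taken from each locus. The background floor lay between 5.00 and 5.12. With 1 array a group no test was possible, and the number of arrays limits the precision. The counting code was tested on simulated data. Members, lists and rules were chosen with earlier results of these data known. Named genes were, among loci with a probe set and symbol of their own and above the floor, the 15 highest and 15 lowest differences at 42 °C outside the strain and mating lists. To these were added the 3 highest and lowest of each list, the 8 highest and lowest differences between temperatures, 2 on each side of each 2-fold limit, and MEX67, NPL3, HSP12, HSP26, HSP30, HSP42, HSP82, HSP104 and SSA4. Other members of the lists were named after their values were seen. Promoter and protein sequence features were planned and were not analysed here.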

Additional observations from a re-analysis of the deposited data

Results flagged for a closer look

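A number of named genes differed at least 2-fold in opposite directions at the temperatures, 1 array on each side, and the change of direction was not tested. STR3 was 4.41 at 42 °C and -1.41 at 25 °C (Mex67 minus Npl3, log2). MET6 was 2.87 and -1.45, FMP48 2.13 and -1.60, ROQ1 1.88 and -1.65, and INO1, of inositol synthesis, 1.6 and -2.06. SMA1 was 1.26 and -2.51, and PRM2, induced by pheromone, 1.2 and -2.94. PHM6 alone of these went from higher at 25 °C, 1.65, to lower at 42 °C, -1.08.

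Among 47 reporter probe sets, which no comparison above uses, 3 were far above the mock in the Mex67 precipitate at 42 °C, at 11.27 against 4.30, 11.31 against 4.06 and 10.01 against 4.35. The Npl3 array was at background there, with 3.82, 4.05 and 4.13. For another reporter the Npl3 array read 11.49 against 6.28 in the mock and 6.55 with Mex67. The files give these probe sets no gene name, and none is given here.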

How the results depend on the processing

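The processing was changed in 9 ways, 1 at a time: no floor or a floor at the median level, centring on the S. cerevisiae or the S. pombe median, a second quantile normalization, the length trend taken away, the brightest probe set of a locus, loci matched by several transcripts left out, and the top 1 percent left out. At 42 °C the counts ranged from 885 to 1294 higher loci and from 893 to 1289 lower loci, each within 1.5 times the reported 1273 and 1140. With the floor at the median, the 25 °C counts were 448 higher and 567 lower, in place of 684 and 858, and the loci higher by the difference between temperatures were 428 in place of 708. Fewer loci are counted there by construction. The length trend mattered most for lists and genes. Without it the medians of 25 of 34 lists moved by more than the S. pombe standard deviation of 0.231, and 7 changed sign, among them those of translation factors (0.25 to -0.28) and aminoacyl-tRNA synthetases (0.44 to -0.11). Of 248 named genes 16 changed sign, of which ACB1 (-1.0 to 0.11) and PHM6 (-1.08 to 0.12) had differed at least 2-fold. Besides these 2, 218 moved by more than that standard deviation. It was taken from probe sets at background and may not hold for expressed loci. HSP12, under 2-fold before, went from -0.06 to 1.15. No paired analysis was possible because each group holds 1 array. Values near the top of the scale may limit the differences of the most abundant mRNAs, which was not tested. No interval can be given for any difference.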

Other observations

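The median difference at 42 °C differed between chromosomes. It was -0.15 over the 306 loci of chromosome XI, and -0.17 at 25 °C. On the other chromosomes it lay between 0.07 and 0.49, the highest being that of the 94 loci of chromosome I. COS12, a subtelomeric membrane protein gene of the DUP family, was below background on both Npl3 arrays, with 4.56 at 42 °C and 4.87 at 25 °C, against 6.08 and 8.33 with Mex67.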
